A study of Mus musculus with 6 samples.

Results

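The cells described here are the Kit-positive cells of GL261-GSCs, the mouse glioma cultures labelled glioblastoma stem cells. A barcode qualified as a cell with at least 8000 UMIs (unique molecular identifiers, each standing for 1 captured RNA molecule), at least 500 genes and under 10% mitochondrial UMIs. Kit-positive cells were chosen by their measured UMIs of Kit, at least 3, and Kit-zero cells had none, so the level of Kit itself is a description and was not tested. This gave 1939 Kit-positive cells among 14893 qualifying GL261-GSCs cells and 22868 qualifying cells in the whole series. The Kit-zero cells of the same libraries, 7240 in all, were the comparison, and cells with 1 or 2 UMIs of Kit belonged to neither class.

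The study profiled GL261, an established mouse glioma line kept with fetal calf serum in a medium that favours differentiation, in 2 libraries, and GL261-GSCs, kept in a defined stem cell medium, in 4 libraries. No genotype change or drug was named for either group. Cells and neurospheres (free-floating spheres) were dissociated with the enzyme mix Accutase and put in a lysis buffer with the detergent IGEPAL. The labels speak of single cells or nuclei, so which of them a droplet held is not known, and 5' droplet libraries were made from them. The labels do not say whether the replicates were separate cultures. With the library as a block, p-values and standard errors (SE) rest on how the difference between the classes varied over the 4 libraries. The edgeR test used below pools that spread in large part over genes, so neither value measures the spread of a single gene. For the myelin gene Opalin, single libraries ran from -1.37 to 0.77 on the log2 scale, while its SE was 0.09. The spread over libraries may be technical.

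Kit is a receptor tyrosine kinase of the cell surface. Its ligand, stem cell factor, is encoded by Kitl. Ligand binding pairs 2 receptors, which phosphorylate each other and recruit Grb2, PI3-kinase and Src-family kinases such as Lyn. The pathway is best known from blood stem cells, mast cells, melanocytes and germ cells. In gliomas, KIT lies in a chromosome segment that is amplified in some tumours together with its neighbours PDGFRA and KDR, which encode related receptors, and PDGFRA is also the receptor that marks oligodendrocyte precursors. The mouse gene Kit (ENSMUSG00000005672.12) spans chr5:75574916-75656722 on the plus strand of GRCm38.

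The label was checked first. Kit was the only marker given for these cells, and since it chose them it is no evidence of their type. The 8 mast cell genes, among them Cpa3 and Ms4a2, summed to 0 to 1.1 CPM (UMI counts scaled to a common library total) in Kit-positive cells of the 4 libraries, and 6 of the 8 had no UMI in either class. Summed melanocyte genes stood at 6.96 to 11.4 CPM, with Mlana, Tyr and Tyrp1 at no UMI in either class. Pan-blood and macrophage genes stood at 17.6 to 30.4 CPM, against 12.3 to 32.5 CPM in Kit-zero cells, with C1qa and Tyrobp at no UMI in either class. Of endothelial and mural genes, Cdh5, Tie1 and Cldn5 had no UMI, and the sum of the 10 genes, 72.9 to 263 CPM, also holds Cspg4, which oligodendrocyte precursors express. Genes of oligodendrocyte precursors summed to 1976 to 4441 CPM in Kit-positive and 1820 to 3529 CPM in Kit-zero cells. Those of astrocytes and radial glia summed to 5626 to 7038 and 5635 to 6605 CPM. Genes of committed oligodendrocytes and myelin summed to 683.7 to 783.1 and 619.5 to 803.8 CPM, and neuronal genes to 422.5 to 471.9 and 392 to 446.2 CPM. The lists differ in length, and these sums do not single out a type. In the test described below, Pmel, a pigment cell gene, fell (-0.79 ± 0.22 SE, edgeR adjusted p = 0.00816). DESeq2 gave it no adjusted p, and it did not pass in edgeR without replicate 2 (adjusted p = 0.0902), without replicate 3 (adjusted p = 0.128), or in cells matched on UMIs and ribosomal share (adjusted p = 0.41). The level of Cd68, a gene of macrophages, differed by 0.23 ± 0.14 (SE) and did not pass. Cd68 did pass edgeR's test at 0.34 without replicate 4 (adjusted p = 0.0486), at 0.97 with classes set after thinning (adjusted p = 0.000328) and at 1.02 with at least 5 UMIs of Kit (adjusted p = 0.0011). The part of macrophage RNA in the results was not tested. Of the cells that usually carry Kit, the genes of mast cells were thus at or near 0.

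The whole files held between 80899005 and 121309232 UMIs per library, and qualifying cells had a median of 11036 to 16655 UMIs in GL261-GSCs. No caller of doublets (droplets with more than 1 cell) was run. Of cell barcodes, 3 belonged to Kit-positive cells of more than 1 library, 2 of them shared by replicates 1 and 2 and 1 by replicates 1 and 3. Replicates 1 and 2 differed from replicates 3 and 4 in the levels of several genes given below, such as Gng3, Pdgfra and Tnc, so each pair was also fitted alone.

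Kit-positive cells were found in each GL261-GSCs library and in neither GL261 library. They made up 24.95% of the 3603 qualifying cells of replicate 1, 14.73% of 4638 in replicate 2, 6.328% of 4867 in replicate 3 and 2.745% of 1785 in replicate 4. Exact binomial (Clopper-Pearson) 95% intervals ran from 23.55 to 26.4%, 13.72 to 15.78%, 5.66 to 7.049% and 2.038 to 3.613%, and these intervals cover counting error only. The intervals of the 4 libraries did not overlap, and the mean share was 12.19% ± 9.88 (SD, n = 4). No UMI of Kit was found in any of the 3875 and 4100 qualifying GL261 cells, which, with 3 counts of the total taken as the limit of a count of 0, allows a share of cells with a UMI of up to 0.0774% and 0.0732%. The upper Clopper-Pearson bounds were 0.0952% and 0.0899%.

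Kit UMIs in qualifying cells came to 108.8, 88.8, 50 and 34.38 CPM in replicates 1 to 4. At least 1 UMI of Kit was present in 67.94%, 58.24%, 41.4% and 27.39% of the cells, so that most cells of replicates 1 and 2 and fewer in the other libraries held such a UMI at this depth. Free RNA, read from small barcodes of 100 or more but fewer than 1000 UMIs, held Kit at 50.64, 55.64, 35.29 and 38.81 CPM in the same order and at 0 in GL261. Some UMIs of Kit in cells can come from that source. The small barcodes of replicates 1 to 4 held a median of 679, 472, 542 and 614 UMIs of all genes. Qualifying cells held a median of 16655, 13049, 13053 and 11036. How many of the single UMIs of Kit came from free RNA was not tested. The share of cells with 1 or 2 UMIs is therefore not read as a share of expressing cells. In the Kit-positive cells Kit stood at 280.6, 293.8, 254.1 and 294.2 CPM, levels that the choice of the cells sets.

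Depth differed between the classes. The median of Kit-positive and Kit-zero cells was 17576 and 15511 UMIs in replicate 1, 14118 and 12437 in replicate 2, 14186.5 and 12720.5 in replicate 3, and 11365 and 11019.5 in replicate 4. After every cell was thinned at random to 8000 UMIs, cells with at least 3 UMIs of Kit made up 9.797%, 6.425%, 2.096% and 1.232% of the 4 libraries, the same order. At the threshold itself, replicate 1 held 601 cells with 2 UMIs of Kit, just outside, and 354 with 3, just inside. The matching numbers were 638 and 318 in replicate 2, 476 and 185 in replicate 3, and 105 and 30 in replicate 4. The counts fell off smoothly through the threshold, with no gap that would set Kit-positive cells apart.

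**Figure D1:**
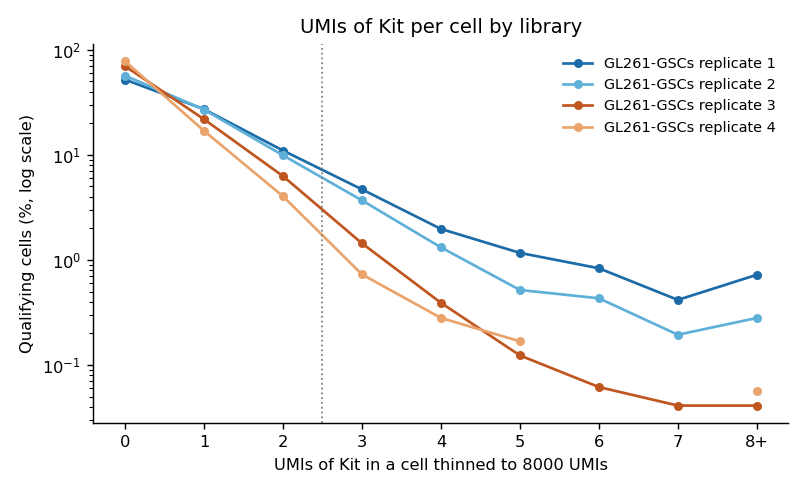
Share of qualifying cells (percent, log scale) by the number of UMIs of Kit in a cell thinned to 8000 UMIs, 1 line per GL261-GSCs library, with the dotted line between 2 and 3 UMIs. Replicates 1 and 2 have longer tails than replicates 3 and 4, and 0.7216% of the cells of replicate 1 hold 8 or more UMIs.

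The tail of that distribution was long. The most UMIs of Kit in 1 cell as deposited were 39, 26, 19 and 8 in replicates 1 to 4. At 8000 UMIs per cell the variance of Kit UMIs over cells was 2.491 times their mean in replicate 1, where the median of 816 genes of similar mean was 1.128. The ratio was 1.946 against 1.088 in replicate 2, 1.424 against 1.081 in replicate 3 and 1.459 against 1.071 in replicate 4. Only 4 of the 816 genes of similar mean exceeded Kit in replicate 1, 14 of 995 in replicate 2, 68 of 1395 in replicate 3 and 37 of 1481 in replicate 4. Kit thus ranked among the more unevenly distributed genes of its level in each library.

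In the expression of other genes, the neighbours of Kit-positive cells were more often Kit-positive than those of Kit-zero cells, but in each library most neighbours of a Kit-positive cell were not Kit-positive. With Kit left out, the 30 nearest neighbours of a Kit-positive cell of replicate 1 were Kit-positive in 30.59% of cases, and those of a Kit-zero cell in 19.06%. The shares were 20.72% and 11.57% in replicate 2, 11.02% and 5.16% in replicate 3, and 5.51% and 2.204% in replicate 4. The share was higher around Kit-positive cells in 4 of 4 libraries, by 7.46 percentage points on average (SD 3.616, n = 4), and no test was made, since a two-sided exact permutation test over 4 paired libraries cannot reach 0.05. Around Kit-zero cells matched to the Kit-positive ones on UMIs, the shares of 18.98%, 12.06%, 5.444% and 2.449% were close to those around all Kit-zero cells. Neighbours were not compared in cells matched on the share of UMIs from ribosomal protein genes, which also differed between the classes. Cells whose neighbours were mostly Kit-positive numbered 80 of 899 in replicate 1, 3 of 683 in replicate 2 and 0 in the other libraries.

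On average, the make-up of RNA differed between Kit-positive and Kit-zero cells of the same library, while the ribosomal protein shares of single cells overlapped. UMIs of ribosomal protein genes took 14.3% of the thinned UMIs of Kit-positive cells and 16.7% of those of Kit-zero cells in replicate 1. The shares were 15.8% and 16.8% in replicate 2, 16.2% and 19.3% in replicate 3, and 14.7% and 19.7% in replicate 4. Mitochondrial UMIs were higher in Kit-positive cells, at 1.53% against 1.16%, 1.42% against 1.13%, 2.10% against 1.30% and 2.05% against 1.29% in the same order. At 8000 UMIs a Kit-positive cell showed 3317, 3293, 3230 and 3312 genes on average, a Kit-zero cell 3182, 3228, 3089 and 3076. Malat1, a long RNA that stays in the nucleus, stood before the scaling used in the test at 3326, 3640, 5173 and 7497 CPM in Kit-positive cells and at 2437, 2847, 3559 and 5328 CPM in Kit-zero cells. Each of these 4 measures differed in the same direction in 4 of 4 libraries.

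These averages ran over a distribution with 2 peaks. The ribosomal protein share had a main peak above 10% and a small separate peak below it, and what the barcodes of the small peak held was not tested. Below 10% lay 16.4% of Kit-positive and 5.54% of Kit-zero cells in replicate 1, 6.88% and 1.7% in replicate 2, 18.2% and 3.61% in replicate 3, and 32.7% and 5.17% in replicate 4. Seen from the other side, 43.6% of the cells below 10% were Kit-positive in replicate 1, against 23.0% of the rest. The pair was 31.3% and 14.2% in replicate 2, 19.7% and 5.50% in replicate 3, and 13.9% and 1.98% in replicate 4. The part of the cells below 10% in the excess of Kit-positive neighbours around Kit-positive cells was not tested. Cells below 10% were shallower, with a median of 9380 to 10186 UMIs against 11174 to 17102 in the rest, and richer in mitochondrial UMIs, 3.61 to 4.89% against 1.04 to 1.20%. The share of such cells was largest among cells with 4 or more UMIs of Kit, at 18.9%, 8.22%, 26% and 57.9% in replicates 1 to 4, the last of 19 cells. Counts of genes by group were therefore also taken over cells with at least 10% ribosomal protein UMIs, and against Kit-zero cells matched on both UMIs and ribosomal share, alternatives added after the data were seen. Counts by fold size, by the number of libraries with the same direction and by distance from Kit were taken over all cells alone.

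**Figure D2:**
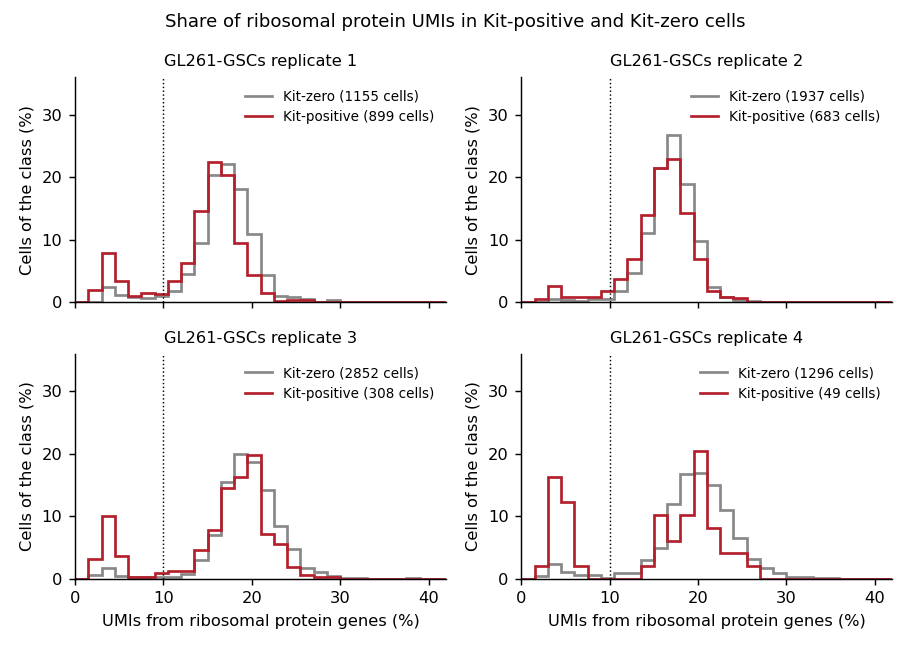
Ribosomal protein UMIs as a percent of the thinned UMIs of a cell (x axis) and the percent of cells of each class (y axis), for Kit-positive (red) and Kit-zero (grey) cells of each GL261-GSCs library, with the dotted line at 10%. Each library has a small peak below 10% that holds a larger share of the Kit-positive cells, 32.7% in replicate 4.

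UMIs were summed over each class in each library, with Kit left out and each cell thinned to 8000 UMIs, and the 2 classes were compared within libraries with edgeR's quasi-likelihood test. Of 12644 genes tested, 2485 (19.7%) passed a Benjamini-Hochberg adjusted p of 0.05. Of these, 1119 (8.85%) were higher and 1366 (10.8%) lower in Kit-positive cells. Most differences were small: 162 rises and 39 falls reached 1.5-fold, and 39 rises and 6 falls 2-fold. Over cells with at least 10% ribosomal protein UMIs, 629 of 12326 genes passed (5.1%), 291 higher (2.36%) and 338 lower (2.74%), and 587 of them had also passed over all cells, with the same direction. Against Kit-zero cells matched on UMIs alone, 1889 of 11487 passed (16.4%), with 820 higher (7.14%) and 1069 lower (9.31%). Against Kit-zero cells matched on UMIs and ribosomal share, 194 of 11454 passed (1.69%), 111 higher and 83 lower. Scaled by library size alone, 2201 genes were higher and 492 lower, since the log2 fold change of the median gene was then 0.11 in place of 0.00. Directions below are relative to the main scaling, edgeR's TMM. The number that passed fell to 816 of 12552 without replicate 1 (430 higher, 386 lower). It fell to 857 of 12632 without replicate 3 (481 higher, 376 lower), and was 2655 of 12699 without replicate 2 (1166 higher, 1489 lower). Counts of listed genes in these fits or under library size scaling are to be read against these totals. With no block for the library none passed in edgeR and 817 had an unadjusted p under 0.05, while with the block limma-voom called 2053 genes and DESeq2 1337.

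The direction of a difference followed the length of the transcript. The longest annotated transcript had a median of 5675.5 bases for genes higher in Kit-positive cells, 1382 for genes lower, and 3054 for genes that did not pass. Of the 829 genes with a transcript above 500 and up to 1000 bases, 9 were higher and 346 lower, while of the 279 above 10000 bases, 130 were higher and 1 lower. Across 12638 genes, which are not independent replicates, Spearman's rho of length and log2 fold change was 0.526, and it was 0.198 over 11449 genes with cells matched on UMIs and ribosomal share. Kit has a longest transcript of 5241 bases, in the range of the genes that were higher. The part of transcript length and ribosomal share in the results below was not tested beyond these fits.

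**Figure D3:**
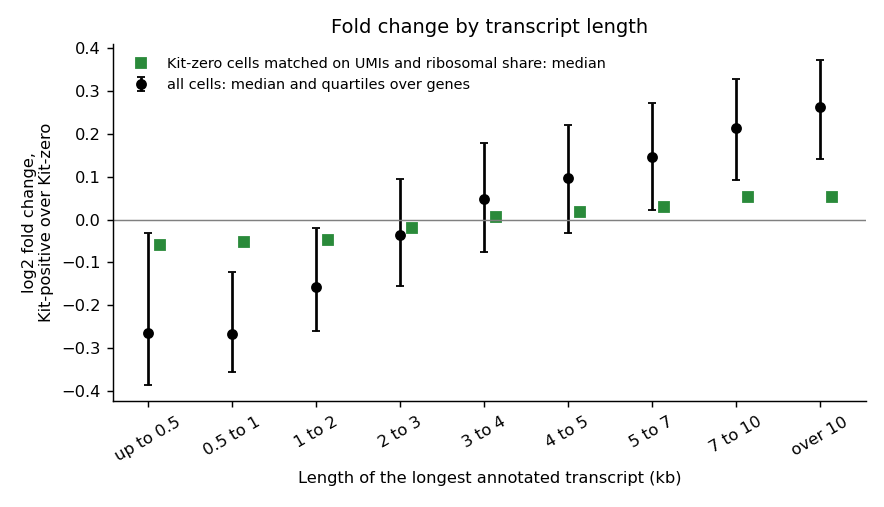
Log2 fold change of Kit-positive over Kit-zero cells by length of the longest annotated transcript (kb): median and quartiles over genes with all cells (black), and the median with Kit-zero cells matched on UMIs and ribosomal share (green). The black medians climb from -0.27 in the shortest class to 0.26 above 10000 bases, and the green ones from -0.06 to 0.05.

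The 10 genes with the largest rises named by rule (same direction in 4 of 4 libraries, average log2 CPM of at least 5) were Lamb1, Sema3a, Itga8, Dpy19l1, Matn2, Abi3bp, Pxdn, Cd109, Adam10 and Reln, with log2 fold changes of 0.66 to 0.85. Of all genes tested, 16.6% were higher and 21% lower in Kit-positive cells of 4 of 4 libraries. Lamb1, a laminin chain of basement membranes at chr12:31265234-31329644, stood at 21.7, 44.1, 69.8 and 64.1 CPM in Kit-positive cells of replicates 1 to 4 and at 13.8, 23.8, 36.7 and 34.0 CPM in Kit-zero cells. Kit-positive cells were higher within each library, while the levels of the classes overlapped across libraries. The log2 fold change was 0.85 ± 0.09 (SE, edgeR adjusted p = 2.38e-10), and 0.56 over cells with at least 10% ribosomal protein UMIs (edgeR adjusted p = 9.56e-05).

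Sema3a encodes a secreted guidance cue that repels growing axons. It stood at 25.5, 30.8, 122 and 149 CPM in Kit-positive and at 16.1, 19.2, 70.2 and 66.2 CPM in Kit-zero cells, high in replicates 3 and 4 in both classes. Its log2 fold change was 0.80 ± 0.09 (SE, edgeR adjusted p = 2.38e-10). Reln, which encodes the large secreted protein reelin that guides migrating neurons, had its highest level in replicate 1, at 310.0 CPM in Kit-positive and 177.6 CPM in Kit-zero cells. In replicates 2 to 4 it stood at 140.6, 158.5 and 130.4 CPM against 85.6, 104 and 111 CPM, a log2 fold change of 0.66 ± 0.08 (SE, edgeR adjusted p = 1.30e-09). Adam10, a membrane protease that sheds Notch and other surface proteins, was higher by 0.67 ± 0.07 (SE) and Itga8, an integrin chain that binds matrix proteins, by 0.77 ± 0.08 (SE), in 4 of 4 libraries each. Abi3bp and Matn2, which encode matrix proteins, were higher by 0.70 ± 0.08 (SE) and 0.71 ± 0.08 (SE). Matn2 was at 0.872 in replicates 1 and 2 alone, and at 0.395 in replicates 3 and 4 alone, where it did not pass (edgeR adjusted p = 0.0585).

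All 10 passed the edgeR test over cells with at least 10% ribosomal protein UMIs, with log2 fold changes of 0.34 (Cd109, a surface protein that restrains TGF-beta signalling) to 0.70 (Dpy19l1). With cells matched on UMIs and ribosomal share, 6 of the 10 passed: Lamb1 at 0.55, Dpy19l1 at 0.70, Matn2 at 0.60, Abi3bp at 0.55, Adam10 at 0.42 and Reln at 0.30. Sema3a at 0.20, Itga8 at 0.29, Pxdn at 0.22 and Cd109 at 0.16 did not.

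A second set of genes led the matched comparison, and was named from it after its values were seen. Thbs2 encodes thrombospondin-2, a secreted matrix protein that limits vessel growth, and lies at chr17:14665500-14694235. It stood at 109.0, 154.0, 134.9 and 54.9 CPM in Kit-positive cells of replicates 1 to 4 and at 45.0, 47.6, 42.5 and 58.9 CPM in Kit-zero cells. Replicates 1 to 3 were higher in Kit-positive cells with no overlap of the classes, and replicate 4, with 49 Kit-positive cells, was not. The log2 fold change was 1.42 ± 0.09 (SE, edgeR adjusted p = 1.61e-19, higher in 3 of 4 libraries). It was 1.31 over cells with at least 10% ribosomal protein UMIs and 1.14 in the matched cells. At 8000 UMIs, 38%, 33.5%, 29.9% and 20.4% of Kit-positive cells held a UMI of Thbs2, against 21.7%, 18.5%, 15.3% and 19.1% of Kit-zero cells.

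Igf1, the secreted insulin-like growth factor, stood at 79.7, 17.2, 18.9 and 11.4 CPM in Kit-positive and 36.7, 6.52, 11.8 and 11.4 CPM in Kit-zero cells. Its level in both classes was highest in replicate 1, and replicate 4 showed no difference. The log2 fold change of 1.05 ± 0.11 (SE, edgeR adjusted p = 2.10e-10) was 1.15 over cells with at least 10% ribosomal protein UMIs. In replicates 3 and 4 alone it was 0.58, with an edgeR adjusted p of 0.153. Abcb4, a lipid transporter of the ABC family, Nt5e, the surface enzyme that turns AMP into adenosine, and Pam, which amidates secreted peptides, were higher in 4 of 4 libraries, by 0.88 ± 0.10, 0.85 ± 0.10 and 0.64 ± 0.08 (SE). Pam stood at 398.7, 305.1, 179.4 and 178.5 CPM against 259.5, 169.0, 119.3 and 143.9 CPM. Anxa1 (annexin A1) at 0.51 ± 0.08 (SE) and Serpina3n, a secreted protease inhibitor, at 0.57 ± 0.08 (SE) were higher in 3 of 4 libraries. In these 7 genes the log2 fold change against matched Kit-zero cells ranged from 0.58 for Serpina3n to 1.14 for Thbs2.

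Levels were also read by the number of Kit UMIs in a cell. Thbs2 stood, as CPM of all summed UMIs, at 43.4 in Kit-zero cells of replicate 1, 45.1 with 1 UMI of Kit, 54.1 with 2, 63.6 with 3 and 146.8 with 4 or more. Replicate 2 ran from 47.1 to 96.7 at 3 UMIs and 210.3 at 4 or more, replicate 3 from 39.0 to 66.2 and 241.9, and replicate 4 from 54.5 to 54.2 and 72.4. In replicates 1 to 3 the larger part of the rise of Thbs2 lay between 3 and 4 or more UMIs. Igf1 in replicate 1 was at 35.4 CPM with no UMI of Kit, 57.2 with 3 and 100.5 with 4 or more. The steps differed between genes and libraries: in replicate 3, Igf1 was at 10.8 CPM with no UMI, 17.9 with 2, 17.6 with 3 and 21.3 with 4 or more, and Abcb4 was at 6.49, 9.98, 13.5 and 10.2 CPM. In a fit of cells with 2 against cells with 1 UMI of Kit, 2 of 11790 genes passed edgeR's test. These were Thbs2, with a log2 fold change of 0.33 and an adjusted p of 0.0406, and the uncharacterized transcript 9130015A21Rik.

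**Figure D4:**
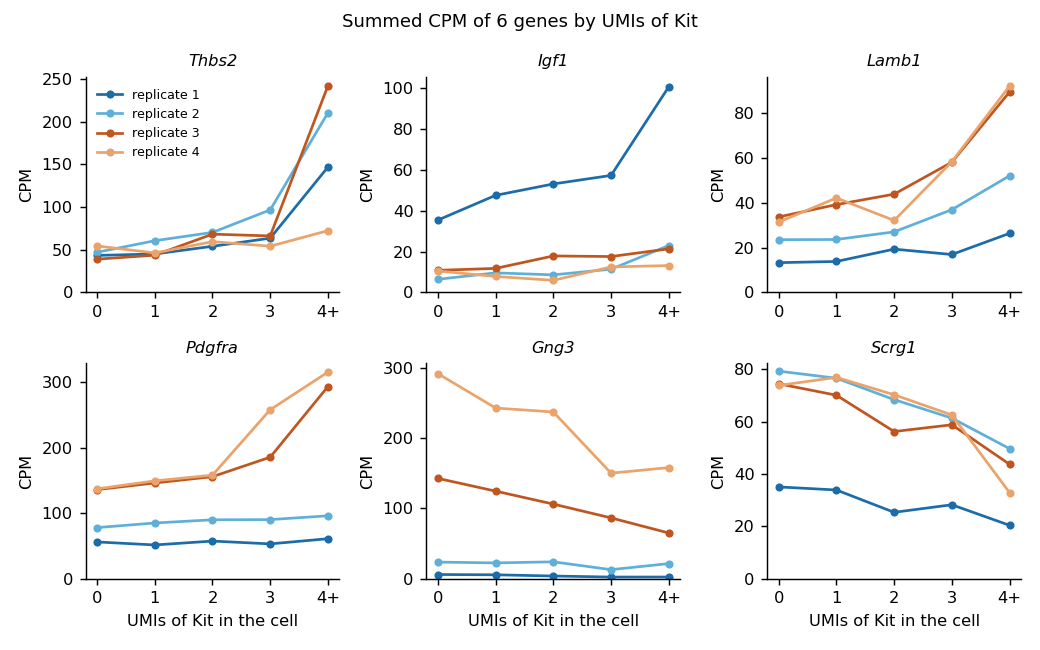
Summed CPM of Thbs2, Igf1, Lamb1, Pdgfra, Gng3 and Scrg1 (y axis, from 0) in cells with 0, 1, 2, 3 and 4 or more UMIs of Kit (x axis), 1 line per GL261-GSCs library. Thbs2 reaches 210.3 and 241.9 CPM at 4 or more UMIs in replicates 2 and 3, and Gng3 falls from 142.6 to 65.0 CPM in replicate 3.

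The largest falls were in genes of mixed function. Of those named by rule, 9 are given here, namely Gng3, Polr2l, Scrg1, Isg15, Bex1, Cdkn3, Cryl1, Aldoc and Fabp5, with log2 fold changes of -0.95 to -0.48. Gng3 encodes a gamma subunit of heterotrimeric G proteins, found mainly in neurons. It stood at 2.39, 17.2, 77.1 and 137.3 CPM in Kit-positive and at 6.28, 24.0, 155.4 and 314.9 CPM in Kit-zero cells of replicates 1 to 4. It was lower in Kit-positive cells of each library, across levels that differed more between libraries than between classes. The log2 fold change was -0.95 ± 0.10 (SE, edgeR adjusted p = 2.38e-10), and -0.67 over cells with at least 10% ribosomal protein UMIs.

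Polr2l, a small subunit shared by the nuclear RNA polymerases, fell by 0.73 ± 0.09 (SE, edgeR adjusted p = 9.95e-09), from 61.9, 45.2, 45.8 and 57.5 CPM in Kit-zero to 35.0, 29.2, 30.1 and 25.2 CPM in Kit-positive cells, with no overlap of the classes. Scrg1, a small secreted protein, fell by 0.64 ± 0.08 (SE, edgeR adjusted p = 7.67e-08). Aldoc, the aldolase form of brain and glia, and Fabp5, a fatty acid carrier, were at -0.48 each, and Fabp5 was spread from 212.3 to 485.3 CPM in Kit-positive and from 245 to 947.4 CPM in Kit-zero cells. Fabp5 was at -0.25 without replicate 4 and at -0.15 in replicates 1 and 2 alone (edgeR adjusted p = 0.237), and did not pass in DESeq2 (adjusted p = 0.2). Cdkn3, a phosphatase that acts on Cdk1 and Cdk2, was at -0.54 ± 0.09 (SE). With cells matched on UMIs and ribosomal share, Gng3 at -0.63, Polr2l at -0.46, Bex1 at -0.44 and Cdkn3 at -0.42 passed, while the other 5, at -0.52 (Isg15) to -0.12 (Fabp5), did not. Hmox1, the heme-degrading enzyme, was among the genes named from that comparison: it fell by 0.84 ± 0.13 (SE, edgeR adjusted p = 2.26e-06), and by 1.21 in the matched cells. Against Kit-zero cells matched on UMIs alone it was at -0.46, without replicate 2 also at -0.46 and without replicate 1 at -1.30, and it did not pass in DESeq2 (adjusted p = 0.119). Its level was 27.0, 23.3, 6.42 and 0 CPM in Kit-positive and 32.3, 57.8, 12.4 and 14.6 CPM in Kit-zero cells. Histone genes Hist1h2ae and H2afx, named in the same way, were at -0.37 ± 0.09 and -0.32 ± 0.08 (SE). Hist1h2ae did not pass without replicate 3 (-0.25, edgeR adjusted p = 0.182), nor H2afx without replicate 1 (-0.26, edgeR adjusted p = 0.126) or replicate 3 (-0.23, edgeR adjusted p = 0.104), and H2afx at -0.17 did not pass over cells with at least 10% ribosomal protein UMIs (edgeR adjusted p = 0.12).

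**Figure D5:**
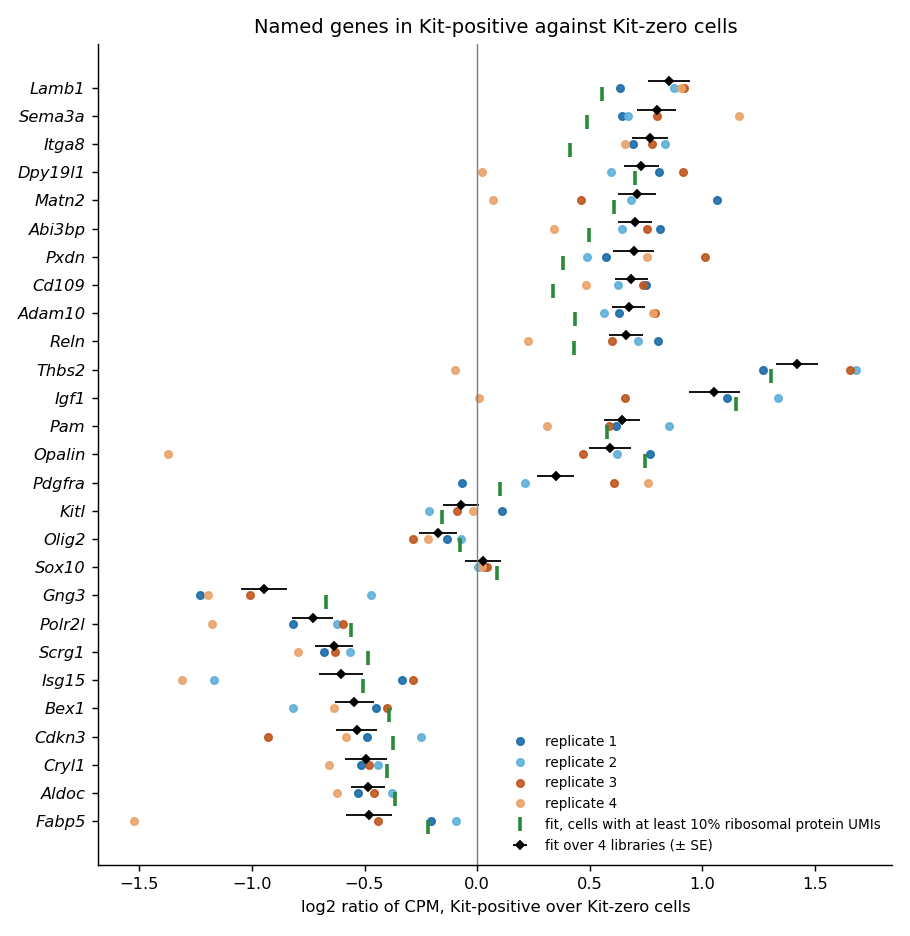
Log2 ratio of CPM in Kit-positive over Kit-zero cells (x axis) of named genes, with 1 point per GL261-GSCs library, the fit over 4 libraries with its SE (black), and the fit over cells with at least 10% ribosomal protein UMIs (green). The 10 genes at the top and the 9 at the bottom lie on 1 side of 0 in every library because the rule that named them required it. Thbs2 at -0.10 and Opalin at -1.37, chosen without that requirement, are negative in replicate 4.

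Of the other receptor tyrosine kinases, 13 of 25 listed were measured well enough to test, and 7 rose and none fell (8.85% of all genes tested rose). Their median log2 fold change was 0.33, against 0.00 for all genes tested, and their median transcript length 6016 bases against 3011. Met, the receptor of hepatocyte growth factor, rose by 0.64 ± 0.09 (SE, edgeR adjusted p = 2.88e-07) and Flt1, a receptor of vascular endothelial growth factor, by 0.58 ± 0.08 (SE, edgeR adjusted p = 7.75e-08), each in 4 of 4 libraries. Flt1 stood at 85.7, 82.2, 110 and 64.1 CPM against 60.0, 48.4, 74.0 and 57.5 CPM. The insulin and IGF receptors Insr and Igf1r were higher by 0.44 and 0.46, Erbb3, which binds neuregulins, by 0.33, and the collagen receptor Ddr2 by 0.29. Of the 13, 4 rose over cells with at least 10% ribosomal protein UMIs (2.36% of genes) and 2 in the matched cells (0.969%), with none lower in either.

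Pdgfra, the platelet-derived growth factor receptor of oligodendrocyte precursors, is the neighbour of Kit at chr5:75152292-75198215. It stood at 55.5, 91.5, 226.4 and 251.7 CPM in Kit-positive and 58.3, 79.0, 148.4 and 148.5 CPM in Kit-zero cells of replicates 1 to 4. The classes were nearly level in replicates 1 and 2 and apart in replicates 3 and 4, where the gene was also higher in both. The log2 fold change was 0.35 ± 0.08 (SE, edgeR adjusted p = 0.00172, higher in 3 of 4 libraries). It was 0.09 in replicates 1 and 2 alone (edgeR adjusted p = 0.57) and 0.69 in replicates 3 and 4 alone (edgeR adjusted p = 8.09e-06), and the difference between these pairs was not tested. It was 0.10 over cells with at least 10% ribosomal protein UMIs (edgeR adjusted p = 0.457) and 0.03 in the matched cells (edgeR adjusted p = 0.942), so the call did not outlast either restriction. Without replicate 3 it was 0.23 (edgeR adjusted p = 0.0991). At least 3 UMIs of Pdgfra in 8000 were held by 4.12%, 7.03%, 26.3% and 28.6% of Kit-positive and 2.6%, 5.52%, 13.3% and 13.6% of Kit-zero cells.

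The ligand of Kit did not pass. Kitl stood at 31.8, 48.4, 113 and 121.3 CPM in Kit-positive and 29.4, 56.1, 120.3 and 122.9 CPM in Kit-zero cells, with a log2 fold change of -0.07 ± 0.08 (SE, edgeR adjusted p = 0.585). Of 27 tested genes of Kit signalling, Lyn rose (0.32 ± 0.12 SE, edgeR adjusted p = 0.0493) and Mapk3, the kinase ERK1, fell (-0.23 ± 0.08 SE, edgeR adjusted p = 0.0285), and neither passed over cells with at least 10% ribosomal protein UMIs. Over all genes tested, 8.85% rose and 10.8% fell, so that in the fit over all cells the counts of this list and of the next one lay near or below those shares. At an unadjusted p under 0.05 stood 7 of the 27, and limma-voom and DESeq2 called none. Scaled by library size alone 7 rose and none fell, where 2201 and 492 of all 12644 genes did. The median of the list was then 0.20 in place of 0.10, and that of all genes 0.11 in place of 0.00. No member passed in edgeR without replicate 1 or without replicate 3, where 816 and 857 of all genes passed. The adaptor Grb2 was at -0.09, the phosphatase Ptpn11 at 0.09, Stat5a at 0.27 and Stat5b at 0.25, with none past the threshold. Of 19 tested genes that respond to ERK signalling, Dusp4 rose (0.41 ± 0.12 SE) and Spry1 and Ier3 fell (-0.25 and -0.32), while Dusp6 at 0.09, Spry4 at 0.02 and Etv5 at -0.01 did not pass. Library size scaling gave 3 rises and 1 fall, and without replicate 1 no gene of this list passed in edgeR. Over cells with at least 10% ribosomal protein UMIs 1 of the 19 rose and 2 fell (2.36% and 2.74% of all genes). In the matched cells 1 of 18 rose and none fell (0.969% and 0.725% of all genes). Among 6 tested transcription factors known to act on Kit in blood and pigment cells, Gata2 rose, from 2.92, 1.11, 3.20 and 2.19 CPM in Kit-zero to 4.92, 2.33, 5.62 and 2.29 CPM in Kit-positive cells. Its log2 fold change was 0.81 ± 0.27 (SE, edgeR adjusted p = 0.025), resting on few UMIs, and it did not pass with any 1 of replicates 1 to 3 left out. Gata2 passed at 0.97 over cells with at least 10% ribosomal protein UMIs (edgeR adjusted p = 0.0207) and at 1.34 in the matched cells (edgeR adjusted p = 0.0399). With classes set after thinning it was at 0.45 and did not pass (edgeR adjusted p = 0.439).

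Near Kit on chromosome 5, 29 genes within 2 Mb on either side were tested, and 6 rose and none fell, where 8.85% of all genes tested rose and 10.8% fell. The median log2 fold change of the 29 was 0.12. Those that rose were Pdgfra, Exoc1 (0.41 ± 0.08 SE, a subunit of the exocyst), Clock (0.27), Rest (0.26), Polr2b (0.27) and the predicted gene Gm42576 (1.23 ± 0.30 SE, at 4.88 CPM in Kit-positive cells on average). Chic2 (-0.04), which lies beyond Pdgfra as seen from Kit, and Srd5a3 (-0.00) and Tmem165 (0.09), which lie between Kit and Clock, did not pass. Kdr, the third receptor gene of the cluster, was not tested: it had 1 UMI over both classes of all 4 libraries. Of the 13 tested genes of a shorter list of neighbours 3 rose. Scaled by library size alone 8 did (2201 of all 12644 genes), and 1 did without replicate 3 (481 of 12632). Over cells with at least 10% ribosomal protein UMIs 1 of the 13 rose (2.36% of all genes), namely Exoc1 at 0.35 (edgeR adjusted p = 0.00294). In the matched cells none of the 13 passed edgeR's test, and 3 had an unadjusted p under 0.05.

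Of 18 tested genes of oligodendrocyte precursors 6 rose and 1 fell, at a median of 0.02 (8.85% of all genes rose and 10.8% fell). The 6 were Pdgfra, Cspg4 (0.24), Ptprz1 (0.31), Pcdh15 (0.30), Vcan (0.34) and Xylt1 (0.31), and the gene that fell was Gpr37l1 (-0.50). The count was 1 rise and no fall without replicate 3 (481 and 376 of all 12632 genes). It was 3 rises and no fall without replicate 1 (430 and 386 of 12552). The 6 that rose have transcripts of at least 6834 bases, and none of them passed over cells with at least 10% ribosomal protein UMIs. The lineage factors Olig2 and Sox10 were high in both classes and did not pass. Olig2 stood at 380.8, 417.9, 738.9 and 647.6 CPM against 417.4, 439, 900.6 and 752.5 CPM (-0.17 ± 0.09 SE, edgeR adjusted p = 0.15). Sox10 stood at 393.7, 366.2, 331.9 and 370.7 CPM against 384.9, 364.9, 321.8 and 365 CPM (0.03 ± 0.08 SE, edgeR adjusted p = 0.874).

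Of 13 tested genes of committed oligodendrocytes and myelin, Opalin rose and Mbp (-0.28) and Sirt2 (-0.44) fell over all cells, near the shares over all genes, 8.85% and 10.8%. Over cells with at least 10% ribosomal protein UMIs 1 rose and 1 fell (2.36% and 2.74% of all genes). In the matched cells 2 of the 13 rose and none fell (0.969% and 0.725% of all genes), and 5 had an unadjusted edgeR p under 0.05. Scaled by library size alone 3 rose and 1 fell (2201 and 492 of all 12644 genes). Opalin, a membrane protein of myelinating cells, stood at 51.3, 89.2, 32.9 and 9.15 CPM against 29.9, 57.8, 23.6 and 24.5 CPM. It was higher in Kit-positive cells of replicates 1 to 3 and lower in those of replicate 4. The log2 fold change was 0.59 ± 0.09 (SE, edgeR adjusted p = 3.80e-06), 0.75 over cells with at least 10% ribosomal protein UMIs and 0.82 in the matched cells. In replicates 3 and 4 alone it was 0.25 (edgeR adjusted p = 0.493), and it did not pass in DESeq2 (0.30, adjusted p = 0.628). Mbp did not pass in DESeq2 or limma-voom, nor in edgeR with either restriction on ribosomal share. Gpr17, a receptor of cells about to differentiate, was at 0.09 and did not pass.

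Among 14 tested genes of astrocytes and radial glia, Gja1, a gap junction protein, rose from 110.0, 77.7, 38.7 and 38.3 to 143.0, 117.6, 71.5 and 64.1 CPM (0.59 ± 0.08 SE, edgeR adjusted p = 1.08e-07), as did Slc1a3 (0.30) and Id3 (0.33), while S100b (-0.29), Aldoc and the fatty acid carrier Fabp7 (-0.58) fell. Over all genes 8.85% rose and 10.8% fell. Of this list, 2 of 13 rose and 2 fell over cells with at least 10% ribosomal protein UMIs (2.36% and 2.74% of all genes), and in the matched cells 2 of 10 rose and none fell (0.969% and 0.725% of all genes). Of 16 mesenchymal genes 3 rose: Tgfbi (0.90), Anxa1 and Tnc, the matrix protein tenascin-C (0.64), against 8.85% of all genes. The count was 4 over cells with at least 10% ribosomal protein UMIs (2.36% of all genes). It was 2 of 15 in the matched cells (0.969% of all genes), and none fell in either fit. Without replicate 2 it was 4 rises and 4 falls (1166 and 1489 of all 12699 genes). Tnc was expressed almost only in replicates 1 and 2, at 37.1 and 96.3 CPM in Kit-positive cells, against 0.80 and 2.29 CPM in replicates 3 and 4. None of 9 neural stem cell factors and none of 6 neuronal genes passed in edgeR, limma-voom or DESeq2. None had an unadjusted p under 0.05 in any of these fits over all 4 libraries. In edgeR's fit of the matched cells 1 of the 9 factors had such a p, and none passed. Sox2 was at -0.04 ± 0.07, Nes, the intermediate filament nestin, at -0.01 ± 0.08, Msi1 at 0.20 ± 0.15 and the neuronal tubulin Tubb3 at -0.22 ± 0.12 (SE). Tubb3 did pass without replicate 2, at -0.38 (edgeR adjusted p = 0.041), in replicates 3 and 4 alone, at -1.88 (edgeR adjusted p = 0.0387), and with at least 2 UMIs of Kit, at -0.28 (edgeR adjusted p = 0.0164).

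Of 28 tested G2/M genes, 7 rose and 5 fell (8.85% and 10.8% of all genes). That count was 1 and 1 without replicate 1, 1 and 0 without replicate 3, and 9 and 2 when scaled by library size alone. Of all genes, 430 and 386 of 12552, 481 and 376 of 12632, and 2201 and 492 of 12644 rose and fell in these fits. Mki67 (0.33), the motors and kinetochore proteins Cenpe (0.28), Cenpf (0.23) and Kif11 (0.24), Top2a (0.32), Hmmr (0.19) and Anln (0.38) rose, while the cyclins Ccnb2 (-0.31) and Ccna2 (-0.21), the kinase Cdk1 (-0.23), Cenpa (-0.23) and Birc5 (-0.31) fell. Over cells with at least 10% ribosomal protein UMIs none rose and 1 fell (2.36% and 2.74% of all genes). With cells matched also on ribosomal share none rose and 8 fell (0.969% and 0.725% of all genes), at a median of -0.22. In that fit 24 of the 28 had an unadjusted edgeR p under 0.05. Mki67 was at 272, 218, 413 and 332 CPM in Kit-positive and 206, 225, 281 and 241 CPM in Kit-zero cells, and its log2 fold change turned to -0.17 in the matched cells (edgeR adjusted p = 0.167). Of 25 G1/S genes Dtl rose (0.34) and Gins2 fell (-0.24), while under library size scaling 7 rose and none fell. Without replicate 2 the numbers were 4 and 0, and without replicate 3 no G1/S gene passed. Neither restriction on ribosomal share left a G1/S gene past edgeR's threshold, and 4 and 6 then had an unadjusted p under 0.05.

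Most of the listed stress and metabolic genes did not pass. Of 18 targets of the stress factor ATF4, 8 fell and none rose (10.8% of all genes fell), at a median of -0.25, namely Ddit3 (-0.56), Chac1 (-0.62), Atf5 (-0.52), Asns (-0.32), Mthfd2 (-0.32), Ddit4 (-0.31), Phgdh (-0.29) and Atf4 itself (-0.21). Over cells with at least 10% ribosomal protein UMIs 6 of the 18 fell (2.74% of all genes), and in the matched cells 2 (0.725% of all genes). Under scaling by library size alone 4 fell, and the falls numbered 4 without replicate 1 and 5 without replicate 3. Of all genes, 492 of 12644, 386 of 12552 and 376 of 12632 fell in these fits. Of 16 immediate early genes 5 fell (10.8% of all genes), among them Jund (-0.38) and Junb (-0.33). Over cells with at least 10% ribosomal protein UMIs 2 fell (2.74% of all genes). In the matched cells 1 of 15 rose and none fell (0.969% and 0.725% of all genes). Scaled by library size alone 1 fell and 1 rose, and 2 fell without replicate 1.

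In sterol synthesis 5 of 22 genes fell, among them Pmvk (-0.31), Mvd (-0.34) and Fdps (-0.32), and 2 rose (8.85% of all genes rose and 10.8% fell). The count was 1 fall and no rise without replicate 1 (386 and 430 of all 12552 genes). It was 2 falls and 1 rise without replicate 3 (376 and 481 of 12632). In cells with at least 10% ribosomal protein UMIs 3 fell and none rose (2.74% and 2.36% of all genes). In the matched cells none passed edgeR's test (1.69% of all genes did), with 4 at an unadjusted p under 0.05. Under scaling by library size alone 6 of the 22 rose and none fell (2201 and 492 of all 12644 genes). Of 16 hypoxia and glycolysis genes 5 fell (10.8% of all genes), among them Bnip3 (-0.45) and Ldha (-0.39), and P4ha1 rose (0.21). Over cells with at least 10% ribosomal protein UMIs 2 fell (2.74% of all genes), and 1 in the matched cells (0.725%). Scaled by library size alone 3 rose and 3 fell, and 2 fell and none rose without replicate 1, as without replicate 3. Of 18 interferon genes 3 rose, among them Oasl2 (0.46) and Tap1 (0.35), and Isg15 (-0.60) and Rsad2 (-0.38) fell. Over all genes the shares were 8.85% and 10.8%. With at least 10% ribosomal protein UMIs 2 of 17 fell and none rose (2.74% and 2.36% of all genes). In the matched cells 1 of 16 rose and none fell (0.969% and 0.725% of all genes). Without replicate 1 the falls numbered 2 of 16 with no rise, without replicate 3 there were 2 falls and 1 rise, and 4 falls and 3 rises without replicate 2. Isg15 was at -0.36 without replicate 2.

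Ribosomal protein genes showed the most uniform difference. Of 81 tested, 78 fell and none rose (10.8% of all genes fell), at a median log2 fold change of -0.38. When sums were scaled by library size alone 69 fell, against 492 of all 12644 genes. Over cells with at least 10% ribosomal protein UMIs 40 fell (2.74% of all genes), at a median of -0.13, and in cells matched on their share, which the matching sets, 3 fell. Without replicate 1 or without replicate 3 the count was 13 or 10, at medians of -0.39 and -0.37. In these fits 386 of 12552 and 376 of 12632 genes fell. Of 14 mitochondrially encoded genes 10 rose (8.85% of all genes), at a median of 0.38, against 3 of 13 over cells with at least 10% ribosomal protein UMIs (2.36% of all genes) and 0 of 13 in the matched cells, where 2 had an unadjusted edgeR p under 0.05. Malat1 and Neat1, both nuclear RNAs, rose by 0.32 ± 0.11 and 0.24 ± 0.08 (SE, edgeR adjusted p = 0.0363 and 0.0174). They were at 0.06 and -0.16 over cells with at least 10% ribosomal protein UMIs, where neither passed. With 1 library or another left out both calls were lost, at edgeR adjusted p of up to 0.289 and 0.248.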

How the data were processed

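The authors deposited raw UMI counts per gene and barcode for each of 6 libraries, with no barcode removed. Per the file headers, Cell Ranger 4 made the tables. The build was mm10 per the submitters' processing notes, and no source used here names the annotation release. Coordinates and transcript lengths came from GENCODE basic annotation M21 (GRCm38) by identifier without version, which matched 99.9% of 54446 identifiers. A symbol given to more than 1 identifier (94 repeats) was read from 1 of them. No strand-specific setting of the counting is stated, so antisense and overlapping genes are uncertain.

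Groups and replicate numbers came from the sample titles. Cells were not treated as replicates: each of the 4 GL261-GSCs libraries gave 1 sum of Kit-positive and 1 of Kit-zero cells, each cell thinned without replacement to 8000 UMIs of genes other than Kit. No cell was lost in thinning. The sums held 392000 to 22816000 UMIs, smallest in Kit-positive cells of replicate 4, whose values are the least precise. The main test was edgeR 4.0.16 (quasi-likelihood, TMM, filterByExpr, Benjamini-Hochberg over all genes, 2-sided) in R 4.3.3 with the library as a block, since both classes came from the same libraries. Log2 fold changes are Kit-positive over Kit-zero, SE is their size divided by the square root of F, and CPM use TMM-scaled sizes except where said. Log2 ratios of single libraries used 0.5 CPM as pseudocount. limma 3.58.1 (voom) and DESeq2 1.42.0 were alternatives. Matching took the nearest unused Kit-zero cell of the library within 10% of the UMIs. Neighbours came from 30 principal components of 2000 variable genes (scikit-learn 1.9.0), and intervals from scipy 1.17.1.

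The rule for named genes took the 10 largest rises and falls among genes that passed, with the same direction in 4 of 4 libraries and an average log2 CPM no lower than 5, without predicted or mitochondrial genes; the gene with the smallest p of each of 22 lists; and Pdgfra, Kdr, Kitl, Olig2, Sox10, Sox2, Nes, Mki67, Dusp6, Spry4, Etv5, Gpr17 and Mbp. Other genes were named after their values were seen, and a few items are not reported here. The cells, the lists and the rule were chosen with earlier results of these data known. For the comparison of Kit-positive and Kit-zero cells, all 3 tools were tested on simulated data, in which 200 of 12643 genes were changed by 0.5 on the log2 scale. edgeR recovered 150 with 8 false calls among 158, limma-voom 125 with 3 among 128, and DESeq2 97 with 0. The changed genes were drawn only from those above a minimum of summed UMIs, and recovery at lower levels was not tested. Apart from the changed genes, both simulated classes shared 1 profile per library, and all genes shared 1 dispersion. The simulation thus held no broad shift by transcript length or ribosomal share, and its false calls do not measure the error under such a shift. GL261 libraries served as background for Kit.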

Additional observations from a re-analysis of the deposited data

Results flagged for a closer look

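Of 69 quantities examined over the 4 libraries, 4 had 1 library far from the other 3, by a gap larger than Dixon's 95% critical value allows, and chance gives about 1 in 20. The log2 ratio of Opalin in Kit-positive over Kit-zero cells was -1.37 in replicate 4 and 0.47 to 0.77 in the others. That of Serpina3n was -0.17 in replicate 4 and 0.52 to 0.65 in the others. Replicate 4 held 49 Kit-positive cells. Lamb1 was at 0.63 in replicate 1 and 0.88 to 0.92 in the others. Bnip3 was at -0.14 in replicate 1 and -0.53 to -0.50 in the others.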

How the results depend on the processing

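The count of genes that differ, 2485, stayed within 1.5 times under DESeq2's size factors, library size scaling, limma-voom, no filter on low counts, unthinned sums, a class limit of 2 UMIs of Kit, classes set after thinning, UMI matching and omission of the deepest 5% of cells, at 1889 to 2693. With no replicate block it was 0. It was 1337 with DESeq2, which gave no adjusted p for 5148 genes, 1275 with at least 12000 UMIs, 936 with at least 5 UMIs of Kit, 857 in cells with few cell cycle UMIs and 1646 with mitochondrial UMIs under 5%. It was 1135 in replicates 1 and 2 alone and 1447 in replicates 3 and 4 alone. It was 629 in cells with at least 10% ribosomal protein UMIs, 194 when matched also on ribosomal share and 2 between cells with 2 and 1 UMIs of Kit. With 1 library left out it ranged from 816 (without replicate 1) to 2655 (without replicate 2). Fewer cells or libraries enter most of these fits, and the cause was not tested further. The mean share of Kit-positive cells ranged from 7.933 to 15.34% with 1 library left out and was 4.888% after thinning. The mean excess of Kit-positive neighbours ranged from 6.103 to 8.844 percentage points.

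Of the named genes, the log2 fold changes that turned their sign belonged to genes that did not pass over all cells, other than Mapk3, Mki67 and Neat1. Matched on ribosomal share, Mapk3 was at 0.0104, Sox2 0.106, Mki67 -0.17, Spry4 -0.184, Gpr17 -0.0395 and Neat1 -0.18. Over cells with at least 10% ribosomal protein UMIs, Sox2 was at 0.0825, Spry4 -0.106, Gpr17 -0.0478 and Neat1 -0.156. Matched on UMIs, Nes was at 0.0119, Spry4 -0.0515 and Etv5 0.0351. With at least 12000 UMIs, Tubb3 was at 0.0015, Kitl 0.0422, Sox2 0.00078, Spry4 -0.0413 and Etv5 0.0169. In cells with few cell cycle UMIs, Tubb3 was at 0.225, Sox2 0.0646, Mki67 -0.174 and Etv5 0.0128. With at least 5 UMIs of Kit, Kitl was at 0.304, Sox10 -0.0534 and Spry4 -0.256. With classes set after thinning, Kitl was at 0.148, Nes 0.0512 and Spry4 -0.132. Scaled by library size alone, Kitl was at 0.0516, Sox2 0.0834, Nes 0.119 and Etv5 0.0924. In replicates 3 and 4, Cd68 was at -0.165, Nes 0.119, Etv5 0.0826 and Gpr17 -0.226, and in replicates 1 and 2, Dusp6 -0.00956 and Spry4 -0.0396. Of named genes that passed over all libraries, Mapk3, Ier3, Gata2, Pdgfra, Dtl, Pmvk, Pmel, Cspg4, Mki67, Mbp, Hist1h2ae, H2afx, Malat1 and Neat1 lost their edgeR call without 1 library or another. With 1 library left out, values ranged from -0.124 to 0.00104 for Kitl, -0.0824 to 0.00948 for Sox2, -0.0576 to 0.0553 for Nes, -0.0284 to 0.172 for Spry4, -0.0647 to 0.0226 for Etv5 and -0.0668 to 0.292 for Gpr17. With no filter, Sox10 was at -0.0277 and Spry4 -0.0195. Cd68 was at -0.152 with no replicate block and -0.0261 with at least 2 UMIs of Kit. Spry4 was at -0.00154 with mitochondrial UMIs under 5% and -0.0343 unthinned, and Nes 0.0197 without the deepest cells.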
